A study of Mus musculus with 18 samples.

Results

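Oxidative stress was examined in RNA diluted to 100 pg, about the amount that a small sorted population of neural stem cells yields. The comparison was that of H2O2 with vehicle in the 6 libraries made from 100 pg of RNA, which are 3 vehicle and 3 H2O2 libraries of the 18 libraries in the series. They were chosen by the input and treatment in the column headers of the 100 pg tables and not by any measured value. The cells, neural stem cells (NSCs), were taken from the dentate gyrus of C57Bl6J mice aged 6 to 9 weeks, grown in culture with EGF and FGF2 and used, by the labels, between passages 6 and 15 (the methods give an earlier first passage). Treated cells received 500 µM H2O2 for 24 h, and control cells received vehicle for the same time (water by the labels, PBS by the methods). The headers name 3 cultures, F5, F8 and M9, each with a vehicle and an H2O2 library. By the methods of the study there was 1 line from pooled female mice and 1 from pooled male mice, so that F5 and F8 are cultures of 1 line and the replicates are not 3 animals. The study calls the 3 cultures biological replicates, and p-values measure only the spread between these cultures of 2 lines. RNA from about 30000 cells per sample was diluted, so a library of 100 pg is a dilution of the RNA that also gave the libraries of 1 ng and 10 pg.

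H2O2 is a diffusible oxidant that cells remove with catalase, glutathione peroxidases and peroxiredoxins, many of them under the transcription factor NRF2. Oxidative damage to DNA activates p53, which induces the cyclin-dependent kinase inhibitor p21, encoded by Cdkn1a. p21 keeps the repressor complexes of the RB family and DREAM bound to the promoters of genes for DNA replication and mitosis, through E2F sites, CHR elements and CCAAT-bound partners. Adult neural stem cells move between division and quiescence, and a quiescent state is marked by Id proteins, low ribosome production and abundant lysosomes.

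The 6 libraries held between 10891411 and 13051643 counted reads, of which 94.5 to 94.9% fell in genes kept by CLEAR, the method of the study for choosing reliably quantified genes. Of 12537 genes in the CLEAR table, 366 were listed at 0 in all 6 libraries, which left 12171 for testing. The 9 markers of NSCs, among them Nes, Vim, Sox2, Sox9 and Fabp7, summed, in the table before CLEAR, to 82891 to 88404 normalized counts in vehicle and 82431 to 104780 in H2O2 libraries. The sum of 4 astrocyte markers was 2037 to 2789 and 2618 to 2927, that of 5 microglia markers 142 to 199 and 149 to 186, that of 5 oligodendrocyte lineage markers 11.1 to 191 and 6.48 to 39.8, and that of 3 neuron markers 20.8 to 170 and 25.05 to 76.8. Their part in the results was not tested. Nearly all of the astrocyte sum was Aldh1l1, at 1998 to 2705 in vehicle and 2535 to 2860 in H2O2 libraries. Gfap was at 0 to 84.3 and 58.0 to 144. Aqp4 and Gjb6 were at 0 in every vehicle library and reached at most 20.7 after H2O2. Sox10, Mbp, Mog, Aif1, Cx3cr1, Tmem119 and Cldn5 were at 0 in all 6 libraries in the table before CLEAR. Transcripts of Y-linked genes reached at most 3.22 normalized counts in F5 and F8, and Xist was at 0 in M9, as the names of the cultures say.

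One library stood apart. On the first principal component of 10554 genes with a mean of at least 50 normalized counts, which held 48.5% of the variance, the vehicle libraries lay between −42.1 and −23.9. The H2O2 libraries lay at 65.0 for F5, 17.96 for F8 and 6.98 for M9, so that the treatments did not overlap and F5 lay farthest from vehicle. On the second component, with 15.4%, both M9 libraries lay lowest, at −28.2 for vehicle and −20.0 for H2O2. The H2O2 library of F5 was next, at −9.06, and the others lay between 15.4 and 21.7. The 10 genes with the most reads took 6.08% of the H2O2 library of F5, the highest share of the 6. For the results that this library moved most, values with it left out are given as well.

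H2O2 changed 184 of 12171 genes at 100 pg (1.51%; limma on log2 of the normalized count plus 1, adjusted p under 0.05). Of these, 81 rose (0.666%) and 103 fell (0.846%), and 34 rose (0.279%) and 69 fell (0.567%) by at least 2-fold. For every one of the 184 genes the 3 H2O2 values lay beyond the 3 vehicle values. By this separation alone, each culture moved in the same direction against its own vehicle. Such separation of the groups was common, with 1533 genes (12.6%) higher and 1713 (14.1%) lower in all 3 H2O2 libraries, so it does not by itself mark a change. The median log2 fold change was 0.90 among genes that rose and −1.17 among those that fell, against 0.01 over all tested genes. Each H2O2 library has a vehicle library of the same culture, and with the culture as a block limma called 216 genes up (1.77%) and 279 down (2.29%), among them all 184. DESeq2, the tool of the study, called 524 up (4.87%) and 610 down (5.67%) of the 10753 genes for which it gave an adjusted p, among them 79 of the 81 and 101 of the 103, and with the block DESeq2 called 606 (5.76%) and 722 (6.86%). At an unadjusted p under 0.05 limma had 2558 genes (21%), 1225 higher (10.1%) and 1333 lower (11%). Counts of list members below are to be read against these shares of all genes.

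**Figure D1:**
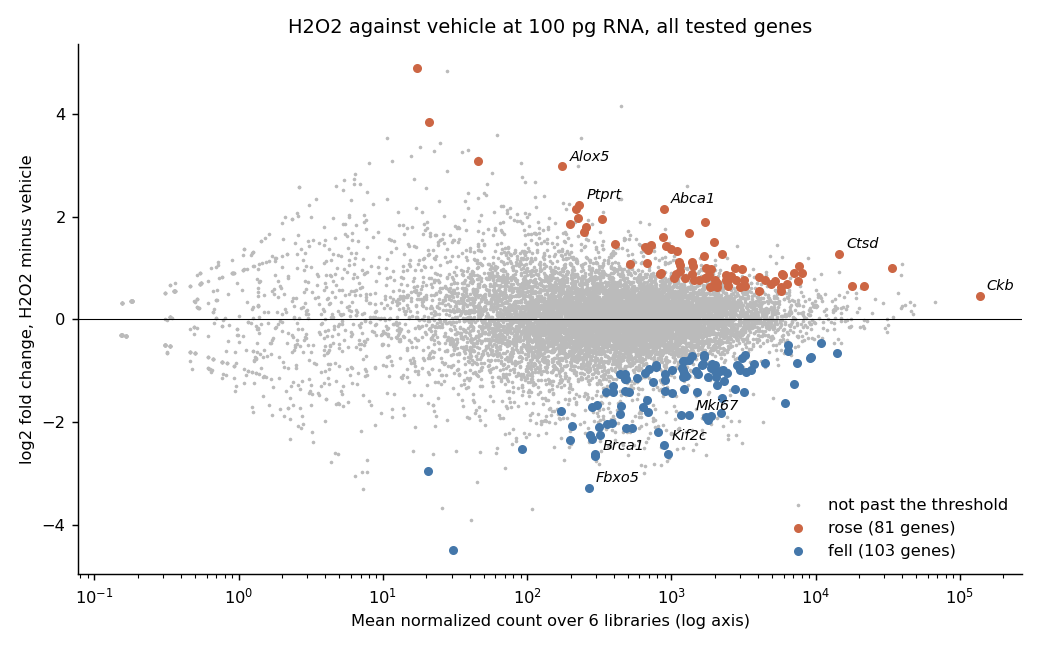
Each point is 1 of the 12171 tested genes, with its mean normalized count over 6 libraries on a log axis and its log2 fold change (H2O2 minus vehicle). Orange points are the 81 genes that rose and blue points the 103 that fell. Calls at low counts are few and large, and those at high counts, such as Ckb at 0.46, are small.

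All adjusted p-values of the 184 genes lay between 0.0316, the smallest in the table, and 0.05, so calls were easily lost. When 1 library was left out, limma called 0 genes for 5 of the 6 libraries (with 1798 to 2562 at an unadjusted p under 0.05), and 13 up (0.107%) and 68 down (0.559%) when that was the H2O2 library of F5. DESeq2 on the same 5 libraries called 256 to 555 genes up and 299 to 755 down. The library of F5 gave the value farthest from the vehicle mean in 90 of the 103 genes that fell and in 54 of the 81 that rose. Without it, DESeq2 called 344 up (3.43%) and 565 down (5.64%). Of the 43 passing genes named by the rule that is given with the processing, 10 stayed past the threshold in limma without this library, and all 43 in DESeq2.

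Genes that limma called were mostly abundant ones. Of the tested genes in the highest quartile of mean normalized count (above 919.9), 60 rose and 59 fell, while in the lowest quartile (below 126.6) 3 rose and 3 fell. The spread between replicates moved with level. The median SD of the log2 value over 3 vehicle libraries was 0.59 in the lowest quartile, 0.35 and 0.23 in the next, and 0.15 in the highest, and over H2O2 libraries it was 0.61, 0.40, 0.27 and 0.19. The median of the mean normalized count was 1770 for genes that rose and 1214 for those that fell, against 384 for all tested genes. DESeq2 also called more genes in the highest quartile than in any other (247 up and 248 down), but its calls were less confined to it. It called 142 up and 197 down in the third quartile, 98 and 136 in the second, and 37 and 29 in the lowest. It gave no adjusted p for 1418 genes, which count here as not called.

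**Figure D2:**
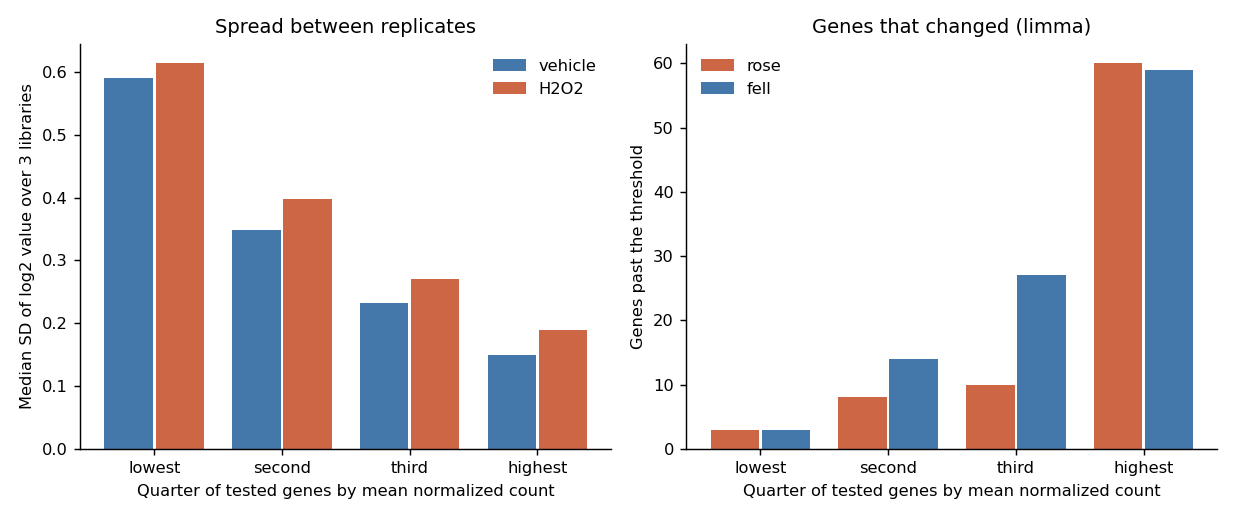
Left, bars give the median SD of log2 values over 3 libraries of each treatment, for quartiles of the tested genes by mean normalized count. Right, bars give the number of genes that rose or fell by limma, which is 3 and 3 in the lowest quartile and 60 and 59 in the highest.

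Among genes with a mean of at least 50 normalized counts, those that fell most were mainly genes of the cell cycle. Fbxo5 encodes EMI1, the inhibitor of the anaphase-promoting complex that lets cyclin A build up at the start of S phase. It was at 497, 406 and 510 normalized counts in vehicle F5, F8 and M9, and at 19.4, 43.5 and 124 after H2O2. The 3 treated libraries were all far below vehicle, and F5 was the lowest (log2 fold change −3.28, SE 0.60, limma adjusted p = 0.0468). With treated F5 left out, the log2 fold change of Fbxo5 was −2.65 and the limma adjusted p was 0.0780, which did not pass. Brca1 (GRCm38, chromosome 11, 101488764 to 101551955, minus strand), a tumor suppressor that directs repair of DNA breaks by homologous recombination, was at 461, 501 and 576 in vehicle and at 54.9, 103 and 90.5 after H2O2. Its groups were well apart and the cultures were close to each other (−2.66, SE 0.33, limma adjusted p = 0.0316, and 0.0354 when F5 was left out of the H2O2 group). Hirip3, which encodes a chromatin protein that binds histones and the chaperone HIRA, was at 617, 474 and 433 in vehicle and at 68.9, 87.9 and 85.0 after H2O2, with the treated values close together (−2.63, SE 0.29, limma adjusted p = 0.0316). In bulk RNA, fewer cells in cycle and less of these transcripts per cell cannot be told apart.

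Foxm1 encodes the transcription factor that drives genes of G2 and mitosis. Its normalized count was 1581, 1365 and 1866 in vehicle and 111, 364 and 425 after H2O2. All treated values were below all vehicle values, with F5 the lowest by a wide margin (log2 fold change −2.62, SE 0.45, limma adjusted p = 0.0441, and −2.01 with 0.0354 without that library). Orc1, a subunit of the origin recognition complex that marks where replication starts, was a gene of low count, at 191, 154 and 128 in vehicle and 39.8, 14.8 and 29.4 after H2O2. Here F8 and not F5 was the lowest library (−2.54, SE 0.49, limma adjusted p = 0.0483). Of its exon length, 10.8% overlaps a gene on the opposite strand, from which reads counted without strand are not separated.

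Kif2c, the microtubule-depolymerizing kinesin MCAK of centromeres, was at 1404, 1358 and 1709 in vehicle and 166, 279 and 429 after H2O2 (log2 fold change −2.45, SE 0.32, limma adjusted p = 0.0333). Cep55, which recruits the abscission machinery at the end of cytokinesis, was at 291, 357 and 334 against 45.2, 112 and 50.1. Mastl, the Greatwall kinase that holds the phosphatase PP2A in check during mitosis, was at 585, 388 and 428 against 56.0, 136 and 99.2. In all of these the 3 treated libraries lay at less than the lowest vehicle library, and F5 was the lowest of them. Cenpq, a subunit of the inner kinetochore, fell by 2.25 on the log2 scale, from 446 ± 83.5 to 95.4 ± 29.8 (mean ± SD, n = 3). Fanca, of the Fanconi anemia core complex that acts at DNA crosslinks, fell by the same amount with a smaller spread, from 532 ± 20.8 to 113 ± 19.4, and 10.5% of its exon length overlaps Zfp276 on the opposite strand.

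**Figure D3:**
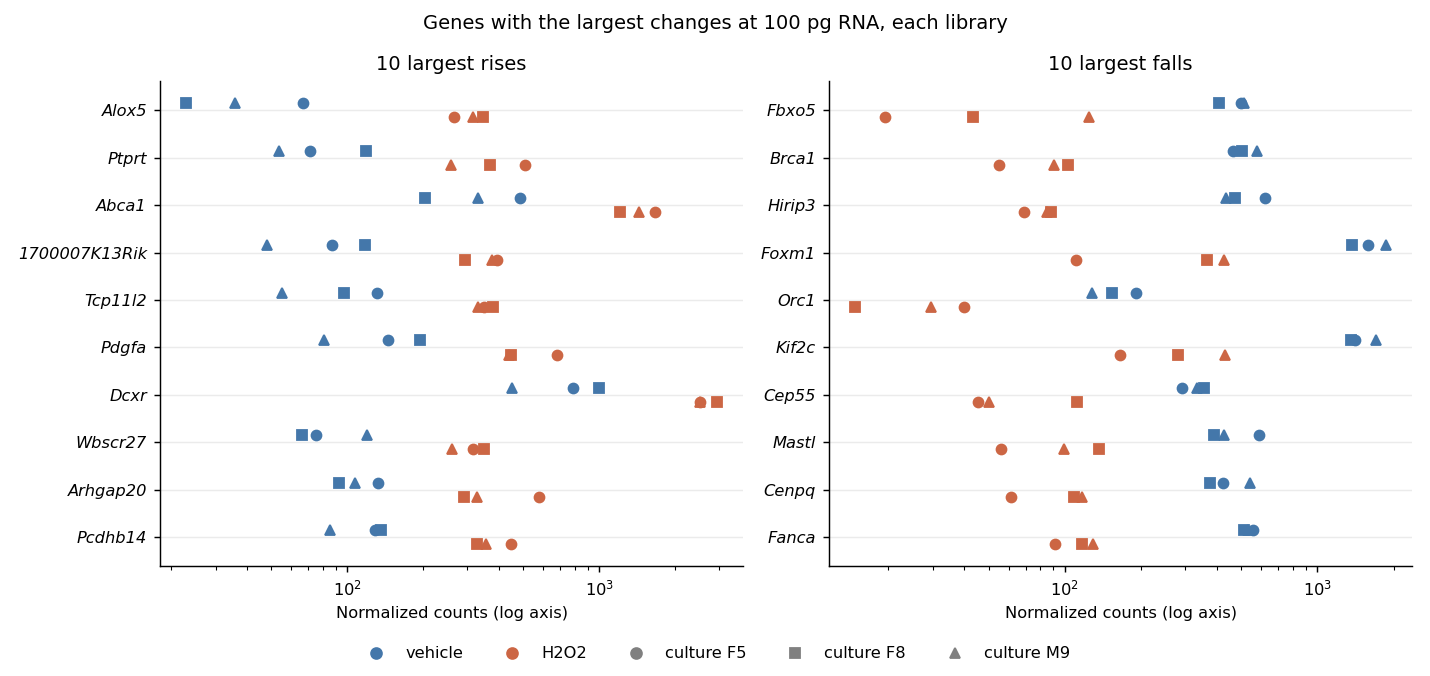
Normalized counts (log axis) of the 10 genes with the largest rises (left) and the 10 with the largest falls (right) among genes past the threshold with a mean of at least 50. Blue symbols are vehicle and orange symbols H2O2 libraries, with shapes for the cultures F5, F8 and M9, and in each gene the 3 orange symbols lie beyond the 3 blue ones.

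Mitosis genes were lower as a group. Of 28 listed, 25 were tested, and all 25 had a lower mean. In all 25 the 3 H2O2 values lay below the 3 vehicle values, as in 14.1% of all genes. All 25 had an unadjusted p under 0.05 (21% of all genes did). By limma 2 fell, Foxm1 and Mki67, against 0.846% of all tested genes. With the culture as a block 17 fell, by DESeq2 10 and by DESeq2 with the block 22, against 2.29%, 5.67% and 6.86%. The median log2 fold change was −2.14 (range −2.99 to −1.24) against 0.01 over all tested genes. Against the vehicle mean the median was −3.88 for the H2O2 library of F5, −1.55 for that of F8 and −1.11 for that of M9. Without the library of F5, limma called 10 and DESeq2 24 of the 25, against backgrounds of 0.559% and 5.64% of genes down.

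Mki67 encodes Ki-67, a protein on the surface of mitotic chromosomes that is widely used to mark cells in cycle. It was at 1691, 2104 and 2294 in vehicle and 288, 747 and 774 after H2O2 (log2 fold change −1.87, SE 0.35, limma adjusted p = 0.0476, and 0.0358 with treated F5 left out). Top2a, the topoisomerase that untangles chromosomes, was at 3920, 4938 and 5947 against 273, 1368 and 2078. Cdk1, the kinase that starts mitosis, was at 2322, 2704 and 2526 against 170, 920 and 1115. In both genes the groups were apart, but the treated libraries spread over 6-fold or more, and neither passed (limma adjusted p = 0.0804 for Top2a and 0.0898 for Cdk1). With the block the limma adjusted p was 0.0304 and 0.0470, and with treated F5 left out it was 0.0619 and 0.0354, with log2 fold changes of −1.53 against −2.40 for Top2a and −1.31 against −2.17 for Cdk1.

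DNA replication followed the same pattern with a smaller median. All 24 tested members of 27 listed had a lower mean, and 23 were lower in every H2O2 library than in any vehicle library, against 14.1% of all genes. All 24 had an unadjusted p under 0.05 (21% of all genes did). Orc1 and Mcm3 fell by limma, 12 members fell with the block, 19 by DESeq2 and 23 by DESeq2 with the block, against 0.846%, 2.29%, 5.67% and 6.86% of all genes. Leaving out treated F5, limma called 8 and DESeq2 20 down, against 0.559% and 5.64% of all genes. The median log2 fold change was −1.74, or −2.82 for F5, −1.17 for F8 and −1.17 for M9. Mcm3, a subunit of the MCM helicase that opens DNA at origins, was at 2849, 2614 and 3296 in vehicle and 389, 1187 and 1055 after H2O2. F5 was again the lowest library (−1.88, SE 0.37, limma adjusted p = 0.0488), and without it the log2 fold change was −1.38 with an adjusted p of 0.0354 in limma.

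Genes of homologous recombination and DNA repair were split by size of change. All 18 tested members had a lower mean (median −1.46, range −2.66 to −0.30), and 14 had groups apart, against 14.1% of all genes. Fanca, Brca1 and Fen1 fell by limma, 5 members fell with the block, 8 by DESeq2 and 14 by DESeq2 with the block, against 0.846%, 2.29%, 5.67% and 6.86% of all genes. Leaving out treated F5, limma called 4 and DESeq2 8 down, against 0.559% and 5.64% of all genes. Fen1, the nuclease that trims flaps of Okazaki fragments, was at 1553, 1644 and 1215 against 451, 771 and 443 (log2 fold change −1.44, SE 0.24, limma adjusted p = 0.0431). Its value is uncertain, since 78.8% of its exon length overlaps the gene model Gm10143 on the opposite strand.

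Promoters of 4 of these genes are shown because cell cycle repressors are known to act through short elements there. RefSeq gives promoter windows (250 bases before to 50 after the start, GRCm38.p6) for 83 of the 103 genes that fell, 59 of the 81 that rose and 9125 of all 12171 tested. Each window was searched on both strands for 5 motifs. The CCAAT box was searched as CCAAT and the CHR element as TTTGAA. An E2F core was searched in a first form, TTCCCGC. The second form was TTGGCGC, and it can share bases with a reverse CCAAT box. The E-box was searched as CACGTG. The 150 bases before the start are given for 4 genes that fell, with each match on either strand in capitals. Mki67 (chr7:135716380-135716529, minus strand) stands for mitosis, Mcm3 (chr1:20820313-20820462, minus strand) for replication, and Brca1 (chr11:101551956-101552105, minus strand) and Fanca (chr8:123318577-123318726, minus strand) for repair.
Mki67: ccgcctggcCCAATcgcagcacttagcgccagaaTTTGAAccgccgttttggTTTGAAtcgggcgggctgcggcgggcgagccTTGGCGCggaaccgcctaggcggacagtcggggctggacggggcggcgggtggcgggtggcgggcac
Mcm3: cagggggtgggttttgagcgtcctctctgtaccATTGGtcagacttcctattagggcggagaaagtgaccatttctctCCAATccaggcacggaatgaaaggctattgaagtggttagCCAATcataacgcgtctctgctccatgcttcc
Brca1: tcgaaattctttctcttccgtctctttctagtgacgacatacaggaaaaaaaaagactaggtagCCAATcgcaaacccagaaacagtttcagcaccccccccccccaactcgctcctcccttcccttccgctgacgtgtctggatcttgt
Fanca: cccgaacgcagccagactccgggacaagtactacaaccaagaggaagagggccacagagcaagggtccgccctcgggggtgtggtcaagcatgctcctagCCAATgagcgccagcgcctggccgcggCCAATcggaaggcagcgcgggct

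In these stretches Mki67 held a CCAAT box, a pair of CHR elements 18 bases apart and an E2F core of the second form, Mcm3 held 3 CCAAT boxes, Fanca 2 and Brca1 1. The stretches leave out the 50 bases after the start that were also searched. There Mcm3 held both E2F forms and Brca1 the second form. Over the whole windows, a CHR element was present in 13 of 19 mitosis promoters (68.4%), in 2 of 20 replication promoters (10%), in 26.5% of the promoters of genes that fell and in 5.08% of those that rose, against 11.4% of all tested genes. A CCAAT box was in 84.2% of mitosis and 75% of replication promoters, in 53% of genes that fell and 32.2% of genes that rose, against 39.5%. The first E2F form was in 0 of 19 mitosis promoters and in 8 of 20 replication promoters (40%). It was in 25.3% of genes that fell and 8.47% of those that rose, against 8.82%. The second form was in 3 of 19 mitosis promoters (15.8%), in 5 of 20 replication promoters (25%), in 16.9% of genes that fell and in 5.08% of those that rose, against 4.65%. The E-box was in 13.3% of genes that fell and 11.9% of those that rose, against 10.3%. Of the 12 repair promoters, 58.3% held a CCAAT box and 41.7% the first E2F form. The CHR element, the second E2F form and the E-box were each in 8.33% of them. Over all 32851 windows in the table the shares were 17.9% for the CHR element, 37.4% for CCAAT, 4.6% and 2.45% for the first and second E2F forms and 7.15% for the E-box. These are counts of letters and not of bound sites, and no test was made.

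Ribosome biogenesis genes were lower by a smaller step. All 24 tested members had a lower mean (median −0.88, range −1.36 to −0.51), and 22 had groups apart (14.1% of all genes did), while all tested genes had a median of 0.01. Nolc1, Mybbp1a, Noc2l and Rrp9 fell by limma, 10 fell with the block, 14 by DESeq2 and 18 by DESeq2 with the block, against 0.846%, 2.29%, 5.67% and 6.86% of all genes. Nolc1, a nucleolar phosphoprotein of small nucleolar ribonucleoproteins, was at 1968, 1903 and 2026 in vehicle and 737, 1189 and 1055 after H2O2 (log2 fold change −1.01, SE 0.19, limma adjusted p = 0.0476). Rrp9, a subunit of the U3 ribonucleoprotein that processes ribosomal RNA, was at 705, 556 and 689 against 294, 308 and 327, and here the treated libraries were close to each other (−1.06, SE 0.20). By library, the median was −1.31 (F5), −0.58 (F8) and −0.64 (M9). With treated F5 left out, limma called 0 and DESeq2 14 of the 24, against 0.559% and 5.64% of all genes. Over all 6 libraries 22 of the 24 had an unadjusted p under 0.05 (21% of all genes did).

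The list of the integrated stress response holds the amino acid and serine genes that ATF4 induces. Of 18 tested members, 5 fell and none rose by limma, 6 fell and 1 rose with the block, and 7 fell and 1 rose by DESeq2. Over all genes these fits called 0.846%, 2.29% and 5.67% down and 0.666%, 1.77% and 4.87% up. Asns, the asparagine synthetase, was at 3193, 4517 and 4277 in vehicle and 1462, 1654 and 1483 after H2O2. The treated libraries were nearly level across cultures (log2 fold change −1.37, SE 0.15, limma adjusted p = 0.0316, and 0.0452 with treated F5 left out). Shmt2 and Mthfd2, mitochondrial enzymes of serine and folate metabolism, had log2 fold changes of −1.53 (SE 0.22) and −1.58 (SE 0.26) and passed. Phgdh, the first enzyme of serine synthesis, fell from 11512 ± 619 to 6951 ± 967 (−0.74, SE 0.12, limma adjusted p = 0.0411), and the amino acid transporter Slc7a5 fell by 1.04.

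The list went in both directions, with 5 members higher and 13 lower, and at an unadjusted p under 0.05 there were 2 higher and 9 lower. Over all genes 10.1% were higher and 11% lower at such a p. Over the 18 members the median was −0.27, with a range of −1.58 to 0.85, and in the 3 libraries it was −0.44, −0.31 and −0.35. Atf4 itself had a log2 fold change of −0.15 and Ddit3, the pro-death factor CHOP, −0.22, and neither passed (limma adjusted p = 0.689 and 0.760). The 5 genes that fell are those of amino acid transport and synthesis and of one-carbon metabolism.

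Ran, the small GTPase that drives transport through the nuclear pore and spindle assembly, was at 11110, 11446 and 11874 in vehicle and 6133, 7629 and 6700 after H2O2 (log2 fold change −0.76, SE 0.11, limma adjusted p = 0.0366, and 0.0464 with treated F5 left out). Ran has processed pseudogenes, between which reads may be split. Hspd1, the mitochondrial chaperonin HSP60, was at 6847, 7132 and 7307 against 2827, 3942 and 4996. Its groups were apart but it did not pass (limma adjusted p = 0.0540, and 0.0292 with the block). Of the lists of mitochondrial translation and chaperones (20 tested) and of heat shock (14 tested), 0 members passed by limma, 8 and 4 had an unadjusted p under 0.05, and DESeq2 called 3 down in each. Over all genes 21% had such a p, and DESeq2 called 5.67% down. In the list of mitochondrial translation and chaperones 19 of 20 had a lower mean (median −0.35). Sox11, a transcription factor of immature neurons, had a log2 fold change of −0.86, with 1436, 1514 and 1723 against 740, 784 and 1090 (limma adjusted p = 0.0555, and 0.0332 with the block).

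Among genes with a mean of at least 50 normalized counts, the one that rose most was Alox5 (GRCm38, chromosome 6, 116410077 to 116461178, minus strand), the lipoxygenase that starts leukotriene synthesis. It was at 66.7, 22.9 and 35.9 normalized counts in vehicle and 266, 345 and 315 after H2O2. Vehicle values were low and uneven and treated values were even, with F5 the lowest of them (log2 fold change 2.98, SE 0.45, limma adjusted p = 0.0366). Abca1, the transporter that exports cholesterol and phospholipid to apolipoproteins, was at 483, 203 and 332 against 1663, 1206 and 1443 (2.15, SE 0.30, limma adjusted p = 0.0366). Lpcat3, which puts polyunsaturated fatty acids into membrane phospholipids, was at 1425, 1409 and 1660 against 2784, 2364 and 2465 (0.76, SE 0.13). These were 3 of the 5 tested members of the list of lipid mediators and efflux, while the other 9 of the 14 listed were not tested, and DESeq2 called 3 of the 5. Over all genes limma called 0.666% and DESeq2 4.87% up.

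Ptprt, a receptor protein tyrosine phosphatase, was at 71.3, 119 and 53.4 in vehicle and 507, 368 and 258 after H2O2 (log2 fold change 2.23, SE 0.41, limma adjusted p = 0.0476). The culture with the highest treated value was F5. Pdgfa, a growth factor for oligodendrocyte progenitors, was at 145, 194 and 81.1 against 681, 448 and 437, with no overlap (1.95, SE 0.37). Of its exon length 26.1% overlaps the gene 6330403L08Rik on the opposite strand. Arhgap20, which encodes a GTPase-activating protein, rose by 1.79 from 111 ± 20.2 to 398 ± 155, and Tcp11l2, 1700007K13Rik and Wbscr27 rose by 1.97, 2.14 and 1.85. Pcdhb14 rose by 1.70. It is 1 of a cluster of protocadherins with near-identical stretches, so its reads may be split with those of its neighbors.

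Of the p53 targets, Dcxr, Fas and Ccng1 rose. Dcxr, a reductase of carbonyl compounds and sugars, was at 786, 1000 and 452 in vehicle and 2507, 2934 and 2511 after H2O2. All treated libraries held more than 2 times the highest vehicle value (log2 fold change 1.90, SE 0.26, limma adjusted p = 0.0366). Fas, the death receptor, was at 198, 233 and 220 against 606, 673 and 522, with the cultures close to each other in both groups (1.46, SE 0.22, limma adjusted p = 0.0367). Ccng1, which encodes cyclin G1, was at 6461, 5949 and 4633 against 9843, 9101 and 9539 (0.75, SE 0.13, limma adjusted p = 0.0452).

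Cdkn1a, the gene of p21, was at 8681, 9150 and 5593 in vehicle and 14987, 14885 and 12555 after H2O2. The groups did not overlap and M9 was the lowest in both, but the gene did not pass without the block (log2 fold change 0.89, SE 0.18, limma adjusted p = 0.0521). It passed with the block (0.0227) and in DESeq2 (0.00197). Phlda3, an inhibitor of AKT signaling induced by p53, had 0.57 (SE 0.15, limma adjusted p = 0.0811, and 0.0272 in DESeq2). Over the 28 tested targets of 30 listed, 25 had a higher mean. Groups were apart upward in 16 and downward in 1, against 12.6% and 14.1% of all genes. By limma 3 rose (against 0.666% of all tested genes), with the block 6 (1.77%), by DESeq2 12 (4.87%) and by DESeq2 with the block 13 (5.76%). The median log2 fold change was 0.50, or 0.54 for F5, 0.65 for F8 and 0.52 for M9 against the vehicle mean and 0.38, 0.52 and 0.69 against its own vehicle, with 17 members at an unadjusted p under 0.05. With treated F5 left out, limma called 0 of the targets and DESeq2 10 up, against 0.107% and 3.43% of all genes.

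**Figure D4:**
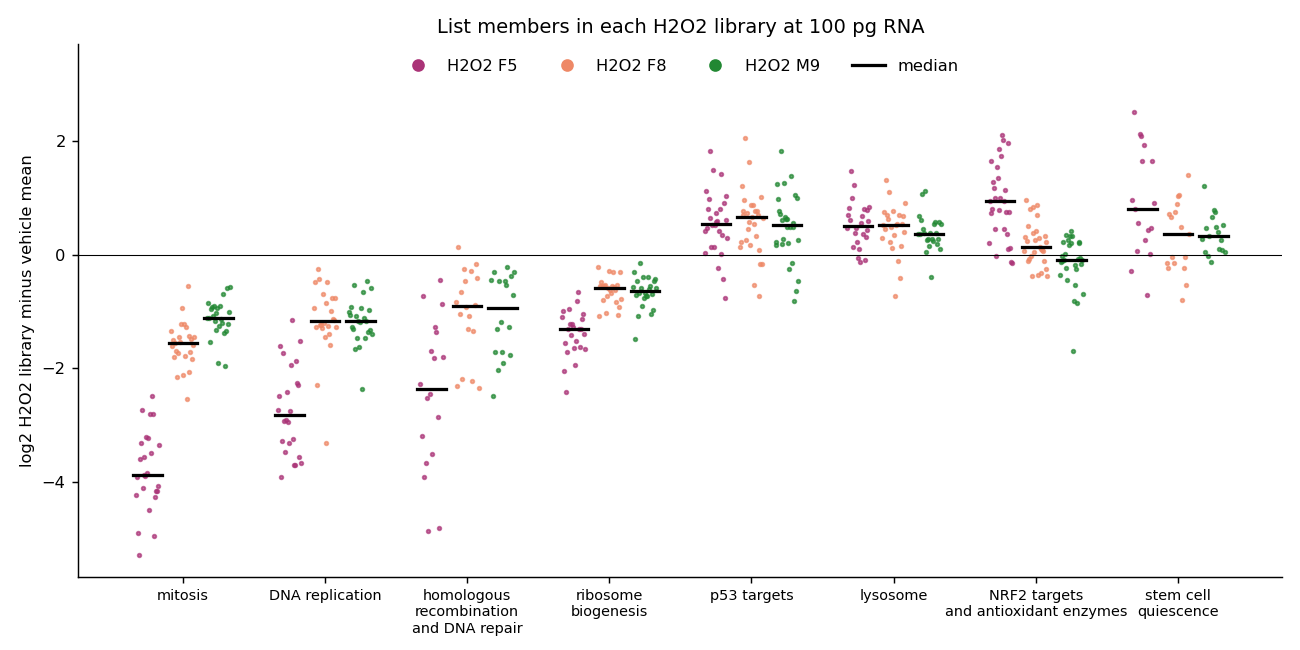
Each point is 1 tested member of a list, placed by the log2 value of 1 H2O2 library minus the mean of the 3 vehicle libraries, and black lines are medians. The mitosis list lies at −3.88 (F5), −1.55 (F8) and −1.11 (M9), the p53 list at 0.54, 0.65 and 0.52, and the NRF2 list at 0.94, 0.13 and −0.09.

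Lysosome genes were higher by a small step in all cultures. Ctsd, the aspartic protease cathepsin D, was among the abundant genes, at 9816, 8907 and 6895 normalized counts in vehicle and 23334, 20909 and 17554 after H2O2. Each culture held more than 2 times its own vehicle value (log2 fold change 1.28, SE 0.15, limma adjusted p = 0.0316). Of its exon length 34.4% is shared with the gene model Gm49369 on the same strand. Cd63, a tetraspanin of late endosomes, was at 4438, 4761 and 4442 against 7319, 6507 and 7238 (0.63, SE 0.10). Ctsb, the cysteine protease cathepsin B, rose by 0.56 (SE 0.10, with 12.8% of its exon length over Fdft1 on the opposite strand), and Tpp1, a tripeptidyl peptidase, rose by 0.76 (SE 0.14). Of 24 tested members, 22 had a higher mean and 14 had groups apart, with 4 up by limma, 6 with the block, 9 by DESeq2 and 11 by DESeq2 with the block. Over all genes 12.6% had groups apart upward, and 0.666%, 1.77%, 4.87% and 5.76% were called up. The median was 0.42 (0.51 for F5, 0.52 for F8 and 0.36 for M9). With treated F5 left out, limma called 0 and DESeq2 8, against 0.107% and 3.43% of all genes up.

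Of the genes that mark stem cell quiescence, Cpe rose, and no other of the 17 tested passed in limma without the block. Cpe, carboxypeptidase E, was at 18415, 18108 and 14463 in vehicle and 29274, 26695 and 23468 after H2O2 (log2 fold change 0.64, SE 0.13, limma adjusted p = 0.0491). Id3, an inhibitor of basic helix-loop-helix factors, was at 1988, 3613 and 2871 against 10424, 5673 and 4594. The groups did not overlap, but F5 was far above the other treated libraries, and Id3 did not pass (1.24, SE 0.31, limma adjusted p = 0.0756, and 0.00171 in DESeq2, with a log2 fold change of 0.90 when treated F5 was left out). Sparc, a secreted matrix glycoprotein, was at 5539, 7169 and 3391 against 15945, 13536 and 7350 (limma adjusted p = 0.0898, and 0.0227 with the block). The study also names Fabp7, Aldoc and Clu for quiescence. Their log2 fold changes were 0.00, −0.06 and 1.09, their groups overlapped, and none passed by limma. Of the 17, 15 had a higher mean (median 0.44, or 0.79 for F5, 0.36 for F8 and 0.32 for M9). With the block 2 passed, by DESeq2 5, and by DESeq2 with treated F5 left out 3, against 1.77%, 4.87% and 3.43% of all genes up.

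Genes of stem and progenitor identity went in both directions, with a median of 0.08 and a range of −0.79 to 0.70 over 15 tested members, and DESeq2 called 1 up and 1 down. Over all genes DESeq2 called 4.87% up and 5.67% down. By limma 1 passed, Vim, the intermediate filament vimentin, at 15058, 14550 and 12000 against 24766, 20634 and 19468 (log2 fold change 0.64, SE 0.13, limma adjusted p = 0.0499). Fabp7, a fatty acid binding protein of radial glia, was level in all 6 libraries, at 17344, 17640 and 17498 in vehicle and 18270, 17045 and 17197 after H2O2. Its log2 fold change was 0.00 with an SE of 0.08. Aldoc, an aldolase of astrocytes and stem cells, had −0.06 (SE 0.26), Sox4 0.16 (SE 0.20, with 54.6% of its exon length over Gm26735 on the opposite strand) and Map2, a microtubule protein of neurons, −0.05 (SE 0.15), and none of these 4 passed. No member of the lists of neuronal differentiation (10 tested), astrocyte (8), oligodendrocyte lineage (4), microglia (1), endothelium and pericyte (1) or fibroblast markers (3) passed by limma. At an unadjusted p under 0.05 there were 2 in the first, 1 astrocyte marker, 1 pericyte marker and 0 in the others (21% of all genes had such a p). DESeq2 called Sox11 and Notch3.

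Among the antioxidant genes under NRF2, 29 members were tested, of which 23 had a higher and 6 a lower mean. By limma 0 passed, and 5 had an unadjusted p under 0.05 (21% of all genes did). Upward, 3 passed with the block, 2 by DESeq2 and 7 by DESeq2 with the block. Over all genes these fits called 1.77%, 4.87% and 5.76% up. The median was 0.34. Against the vehicle mean it was 0.94 for F5, 0.13 for F8 and −0.09 for M9, and against its own vehicle 0.81, 0.14 and 0.10, so that the sign for M9 depended on the reference. Srxn1, the sulfiredoxin that restores oxidized peroxiredoxins, was at 1818, 2214 and 875 in vehicle and 5922, 1409 and 1774 after H2O2. It was above its own vehicle in F5 and M9 and below it in F8, and the groups overlapped (log2 fold change 0.69, SE 0.52, limma adjusted p = 0.498, and 0.06 with treated F5 left out). Gpx1, a glutathione peroxidase that reduces H2O2, was at 3290, 3226 and 2335 against 5833, 5052 and 3677, higher in each culture (0.71, SE 0.20, limma adjusted p = 0.0912, and 0.0272 with the block). With treated F5 left out, DESeq2 called 0 of the 29 up and 1 down, against 3.43% and 5.64% of all genes. With 1 library per culture and treatment the difference between cultures could not be tested.

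Clu, the chaperone clusterin, was another gene for which F5 stood apart, at 407, 587 and 121 in vehicle and 1750, 500 and 318 after H2O2. The groups overlapped, and it did not pass (log2 fold change 1.09, SE 0.70, limma adjusted p = 0.419). Without treated F5 the log2 fold change was 0.38. Slc5a3, the myo-inositol transporter, was at 3032, 3306 and 1918 against 13011, 5874 and 5136. It was higher in each culture (1.45, SE 0.34), with limma adjusted p = 0.0670 without and 0.0272 with the block, and the log2 fold change was 1.04 with treated F5 left out.

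Single members of other lists rose. Ldhb, the lactate dehydrogenase subunit that favors pyruvate, was at 4505, 4302 and 3930 in vehicle and 7676, 8549 and 6978 after H2O2 (log2 fold change 0.86, SE 0.11, limma adjusted p = 0.0333), and no other of 17 tested glycolysis genes passed. Arntl, the clock activator BMAL1, was at 297, 322 and 373 against 788, 588 and 716 (1.07, SE 0.21, limma adjusted p = 0.0490), the only one of 14 tested genes of the circadian list to pass. Fos, an immediate early gene, was at 143, 105 and 116 against 328, 301 and 548. Its groups were well apart, but the adjusted p of 0.0504 in limma did not pass (1.65, SE 0.33), and it passed with the block (0.0437). The median over 18 tested immediate early genes was 0.47. Of these 0 passed by limma, 7 had an unadjusted p under 0.05, and 3 passed with the block and 3 by DESeq2. Over all genes 21% had such a p, and limma with the block and DESeq2 called 1.77% and 4.87% up.

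In the remaining lists 0 members passed by limma. At an unadjusted p under 0.05 there were 3 of 16 in the unfolded protein response, 6 of 22 in cholesterol synthesis and 3 of 12 in the interferon response. There were also 3 of 10 among secreted senescence factors, 6 of 16 in the extracellular matrix and 3 of 13 in the hypoxia response. Of all genes 21% had such a p. In these lists DESeq2 called 0, 0, 1, 2, 4 and 1 members, all up, against 4.87% of all genes up. The member with the smallest p was Syvn1 for the unfolded protein response (log2 fold change 0.56, adjusted p = 0.176, limma), Ifitm3 for the interferon response (1.20, 0.129), Igfbp3 for secreted senescence factors (1.07, 0.0997), Col11a1 for the extracellular matrix (1.69, 0.0670) and Bnip3l for the hypoxia response (0.59, 0.0752). Of these, Ifitm3 and Igfbp3 passed with the block (0.0308 and 0.0235). Igfbp3, which binds insulin-like growth factors, was at 29186, 28656 and 17525 in vehicle and 83387, 45484 and 35551 after H2O2, highest in F5, and its log2 fold change was 0.72 with that library left out. Among markers of other cell types, Notch3, a receptor of pericytes and also of stem cells, was at 309, 344 and 364 against 487, 703 and 906 (1.00, limma adjusted p = 0.0798, and 0.00452 in DESeq2). Here M9 and not F5 was the highest treated library. Rpl5, a ribosomal protein, had −0.33 (SE 0.14) and did not pass, with 24.3% of its exon length over Fam69a on the opposite strand.

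The same RNA was also sequenced at inputs of 1 ng and 10 pg, and each table was normalized on its own. Since the inputs are dilutions of the same 6 RNA samples, their values are set side by side with no test between them. The 10 genes with the largest rises at 100 pg had log2 fold changes of 1.70 to 2.98 there and 0.78 to 2.64 at 1 ng, and the 10 with the largest falls had −3.28 to −2.25 and −2.48 to −1.45. They were picked for their size at 100 pg. Cep55 had −2.48 (SE 0.81, limma adjusted p = 0.0800) at 1 ng and Kif2c −2.45 (SE 0.74, 0.0662), with standard errors about 2 times those at 100 pg. Ptprt had 0.87 (SE 0.33, 0.114) and Pcdhb14 0.78 (SE 0.24, 0.0663), against 2.23 and 1.70 at 100 pg. Alox5 had 2.64 (SE 0.31), Dcxr 1.76 (SE 0.17) and Brca1 −2.23 (SE 0.44).

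At 10 pg only 6 of these 20 genes were in the CLEAR table, and none passed (limma adjusted p from 0.347 to 0.960). Dcxr had 1.65 (SE 0.46), Abca1 1.07 (SE 1.06) and Wbscr27 −0.25 (SE 1.21), while Foxm1 had −1.32 (SE 1.04), Cenpq −0.74 (SE 0.75) and Brca1 −6.27 (SE 2.11). Of these, Wbscr27 alone changed sign from 100 pg. For the abundant gene Ctsd the log2 fold change was 1.32 (SE 0.16) at 1 ng, 1.28 (SE 0.15) at 100 pg and 1.25 (SE 0.15) at 10 pg, and for Asns it was −1.28 (SE 0.16), −1.37 (SE 0.15) and −1.34 (SE 0.37). Neither passed at 10 pg (limma adjusted p = 0.0839 for Ctsd and 0.347 for Asns).

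**Figure D5:**
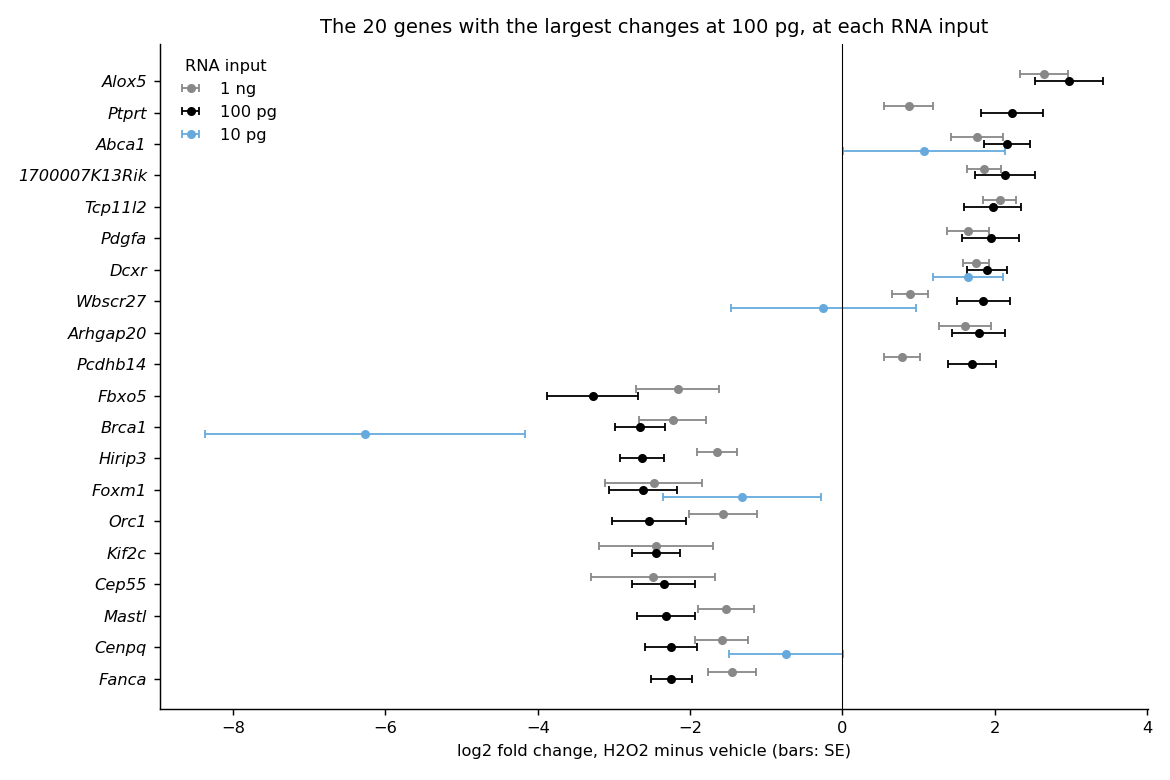
Log2 fold changes (H2O2 minus vehicle) with bars of 1 SE from limma for the 20 genes named by size at 100 pg, at inputs of 1 ng, 100 pg and 10 pg. All 20 lie on the same side of 0 at 1 ng as at 100 pg, and at 10 pg only 6 were listed, with wide errors.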

How the data were processed

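RNA was preamplified with SMART-Seq HT, made into Nextera XT libraries and sequenced with paired ends. The authors removed ribosomal, mitochondrial and PhiX reads, aligned with HISAT2 2.0.6 to GRCm38 (the submitters' notes name GRCh38, a human build, and CASAVA 1.8.2) and counted genes without strand on GENCODE M14. The deposited signal is a normalized count, for which the authors scaled each library by 1 size factor. Values were whole multiples of 1 read (100% within 1e-08), so reads were recovered for count tests. PCR reads are not independent molecules.

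The main test was limma 3.58.1 (R 4.3.3, mean trend, 2-sided, Benjamini-Hochberg over 12171 genes, threshold 0.05) on log2(normalized count + 1), which understates changes of low genes. DESeq2 1.42.0 and edgeR 4.0.16 were run on recovered reads. Alternatives were another scaling, pseudocount or filter, the unfiltered table, the culture as a block, and libraries left out. Columns were assigned by header. Vehicle and H2O2 libraries pair by culture, and their deviations from the group means correlated over 10554 genes by 0.0812 (F5), 0.0467 (F8) and 0.248 (M9). Replicates differed by more than sampling noise (lowest chi-square per gene 23.0).

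Named were the 10 largest rises and falls that passed, with a mean of at least 50 normalized counts and groups apart, up to 4 passing members of each of 28 lists (otherwise the member with the smallest p), and 17 fixed genes. Genes named outside this rule (Atf4, Ddit3, Slc7a5 and the closing observations) were chosen after their values were seen. Date-named genes (18) are not named. A few items that the rule would name are not reported here. Members and lists were chosen with earlier results of these data known. Annotation for exon overlap was GENCODE M21 (98.2% of symbols matched).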

Additional observations from a re-analysis of the deposited data

How the results depend on the processing

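The direction of every passing gene named by the rule held under each alternative, while counts depended strongly on the test. Genes named outside the rule were not followed in this way. With TMM factors, edgeR, a pseudocount of 10 or a mean of at least 10, limma or edgeR called 66 to 86 genes up and 76 to 107 down. DESeq2 called 524 up and 610 down. With the culture as replicate block, limma called 216 up and 279 down, edgeR 196 and 232, and DESeq2 606 and 722. In the unfiltered table (28838 genes) limma called 0 up and 0 down, with 3349 at an unadjusted p under 0.05. Without both libraries of culture F5, of F8 or of M9 it called 0 up and 0 down, with 1666 to 1818 at an unadjusted p under 0.05. With 1 library left out, calls up ranged from 0 in limma to 555 in DESeq2, and calls down from 0 to 755. DESeq2 with the block and without culture F5 called 404 up and 433 down. The DESeq2 fits without libraries were chosen after seeing the data. The causes were not tested.

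Lysosome members up (4, with 0.666% of all genes up) were 9 by DESeq2, 11 by DESeq2 with the block and 8 by that fit without culture F5. Over all genes these fits called 524 (4.87%), 606 (5.76%) and 404 up. With 1 library left out the lysosome count was 0 in limma and 5 to 10 in DESeq2, which called 256 to 555 of all genes up. By limma it was 0 in the unfiltered table or without both libraries of a culture. Integrated stress response members down (5, with 0.846% of all genes down) were 0 or 1 in limma and 5 or 6 in DESeq2 with 1 library left out. Over all genes these DESeq2 fits called 299 to 755 down. By limma the stress response members were 0 in the unfiltered table or without a culture. Ribosome biogenesis members down (4) were 14 by DESeq2, 2 with the pseudocount of 10, and 10, 9 and 18 with the block in limma, edgeR and DESeq2. The last without culture F5 gave 10. Over all genes these fits, in the same order, called 610, 76, 279, 232, 722 and 433 down. With 1 library left out the ribosome biogenesis count was 0 in limma and 7 to 18 in DESeq2, which called 299 to 755 of all genes down. By limma it was 0 in the unfiltered table or without a culture. With the replicate block, all 43 passing genes named by the rule remained past the threshold in limma, edgeR and DESeq2.

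Among genes named by the rule, log2 fold changes that changed sign were all in genes that did not pass. With 1 library left out they ranged from −0.62 to 0.27 for P2ry12, −0.69 to 0.16 for Thy1, −0.033 to 1.24 for Srxn1, −0.031 to 0.021 for Fabp7, −0.33 to 0.25 for Aldoc and −0.23 to 0.076 for Map2. Without both libraries of a culture they were 0.56 for P2ry12, −0.037 for Fabp7 and 0.10 for Map2 (F5), 0.072 for Thy1 and 0.082 for Aldoc (M9) and −0.032 for Sox4 (F8). In DESeq2 with the block and without F5 they were −0.031 for Fabp7 and 0.10 for Map2. With 3 libraries per group, the median SD of vehicle values on the log2 scale was 0.59 in the lowest quartile of mean count and 0.15 in the highest, and limma called 3 up and 3 down and DESeq2 37 up and 29 down in the lowest.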

Other observations

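Of the 184 genes that changed, 154 were in none of the 28 lists, 67 of them up and 87 down. Some are given here by known role. They were chosen after their values were seen, so their grouping is a description and no test of a group was made.

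Beside Ran, other genes of nuclear transport fell. Rangap1, which stimulates GTP hydrolysis by Ran, had a log2 fold change of −1.41, its partner Ranbp1 −1.35, Cse1l, the exporter of importin alpha, −1.06 and Ipo5, an importin, −0.94. Enzymes of nucleotide synthesis fell as well, with Dhodh and Umps of pyrimidine synthesis at −1.16 and −1.04, and Ctps, the CTP synthase, at −0.81. The splicing factors Srsf7, Srsf2 and Srsf3 fell by 1.00, 0.99 and 0.86. Genes of the nuclear envelope fell by more, with Lmnb1, which encodes lamin B1, at −1.89, Tmpo at −1.83 and Lbr, the lamin B receptor, at −1.12. Among chromatin proteins, Uhrf1, which maintains DNA methylation, had −1.96, Hmgn2 −1.63 and the histone variant gene H2afz −1.26. Hmgn2 and H2afz have close copies in the genome, between which reads may be split. E2f7, a repressor of the E2F family, fell by 2.07 and Rbl1, which encodes the pocket protein p107, by 1.67.

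Among genes that rose were Mxd4, a partner of MAX that opposes MYC (1.49), the kinase Sgk1 (1.33), the survival factor Bcl2l1 (1.24) and the noncoding RNA Malat1 (1.01). Ckb, the brain creatine kinase, had the smallest log2 fold change of the genes that rose, 0.46, and the highest mean normalized count of any tested gene, 136996.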
